A study of Mus musculus with 16 samples.

Results

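The expression of 9 genes of insulin signalling and glucose handling was followed in iWAT, inguinal white adipose tissue from under the skin of the groin, in the SOD1G93A mouse model of amyotrophic lateral sclerosis. The genes were listed by name and not ranked by their values, but earlier results of these data were known. They were Insr, Irs1, Irs2, Pik3r1, Akt2, Foxo1, Slc2a4, Hk2 and Pck1, 9 of the 54752 gene IDs in the count table. RNA was sequenced from 16 C57BL/6J mice aged 90 days and labelled as females, 4 for each of 4 genotypes, which share no treatment. Lepob/+ mice had an ob allele of the leptin gene Lep beside a normal copy, SOD1G93A mice had a mutant human SOD1 transgene, SOD1G93A-Lepob/+ mice had both and WT mice had neither. The ob allele is present in every cell, and the transgene is a high-copy insertion that is not limited to neurons, so neither acts in fat alone. Levels are given in CPM, the counts of a gene scaled to the total of its library after TMM, the trimmed mean of M-values.

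Insulin binds its receptor on the fat cell, and the receptor phosphorylates the docking proteins IRS1 and IRS2, which recruit PI3K. The lipid made by PI3K activates AKT2, which brings vesicles with the glucose transporter GLUT4 to the cell surface and keeps the transcription factor FOXO1 out of the nucleus. White fat uses the glucose for triglyceride, and it also makes the glycerol backbone of triglyceride through Pck1. The counts measure transcripts, and neither phosphorylation nor the place of GLUT4 in the cell was measured. In RNA from whole tissue, fewer cells of a type and less RNA per cell cannot be told apart.

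None of the 9 genes differed between genotypes past an adjusted p of 0.05 in edgeR's quasi-likelihood test, and neither did any of the 19736 genes tested. Of the 4 comparisons and the interaction of both mutations, 1 value had an unadjusted p under 0.05, that of Foxo1, which was higher in SOD1G93A than in WT. The share of all genes with such a p was 2.56% in that comparison and up to 16.5% in the others. The larger differences lay between single libraries. Insr was at 13.2 CPM in the library labelled SOD1G93A-Lepob/+ replicate 3 and at 86.2 to 143 CPM in the other 15, and Slc2a4 and Hk2 were highest in Lepob/+ replicate 4, the library richest in skeletal muscle transcripts.

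All 16 libraries had 36.8 to 61.9 M counts (M for mega), and all 8 markers of mature adipocytes were detected in each, with a sum of 12830 to 29700 CPM. The markers were Adipoq, Plin1, Fabp4, Cidec, Lep, Pparg, Lipe and Cfd. Lep, the gene with the ob allele, was at 181 to 1843 CPM, so the sum is not fully independent of genotype. That sum ran from 24370 to 27160 CPM in SOD1G93A-Lepob/+, from 12830 to 27090 in SOD1G93A, from 13090 to 26980 in Lepob/+ and from 18050 to 29700 in WT. Libraries stood apart in 3 ways. The library labelled SOD1G93A-Lepob/+ replicate 3 had 0 counts of Xist, the RNA that silences an X chromosome in female cells, and 1756 counts of genes of the Y chromosome, while the other 15 had 11895 to 28034 counts of Xist and 0 of the Y genes, so its RNA went against the label of female. Skeletal muscle markers summed to 209400 CPM in Lepob/+ replicate 4 and 5370 in WT replicate 3, against 8.91 to 345 in the other 14. Markers of the stroma of lymph nodes, with their high endothelial venules, summed to 499.9 to 1070 CPM in 6 libraries (WT replicates 1 and 2, Lepob/+ replicate 3 and SOD1G93A replicates 1, 2 and 4) and to 5.16 to 47.3 CPM in the other 10, which include all 4 of SOD1G93A-Lepob/+.

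The promoters of Pck1 and Irs2 are shown because both genes are known for control of their transcription by cyclic AMP and fasting, and that of Irs1 because it encodes the other docking protein. Each run is the 250 bases before the start of the RefSeq transcript on GRCm38.p6, 5′ to 3′ on the gene's own strand. Both strands were searched for 7 motifs, and capitals mark the matches. The motifs of the cyclic AMP response were TGACGTCA and TTACGTCA. The core bound by FOXO factors was TGTTTAC. The motif of an E-box was CACGTG, and that of a GC box, which SP1 binds, was GGGCGG. The motif of a TATA box was TATAAA, and the last of those searched for was CCAAT. Irs1 is at chr1:82291440-82291689, minus strand, Irs2 at chr8:11008930-11009179, minus strand, and Pck1 at chr2:173152823-173153072, plus strand.
Irs1: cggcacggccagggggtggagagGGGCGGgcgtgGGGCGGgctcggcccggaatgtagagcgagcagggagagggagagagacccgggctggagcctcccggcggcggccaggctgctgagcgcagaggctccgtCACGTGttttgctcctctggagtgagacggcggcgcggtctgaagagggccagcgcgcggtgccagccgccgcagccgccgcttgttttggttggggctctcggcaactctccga
Irs2: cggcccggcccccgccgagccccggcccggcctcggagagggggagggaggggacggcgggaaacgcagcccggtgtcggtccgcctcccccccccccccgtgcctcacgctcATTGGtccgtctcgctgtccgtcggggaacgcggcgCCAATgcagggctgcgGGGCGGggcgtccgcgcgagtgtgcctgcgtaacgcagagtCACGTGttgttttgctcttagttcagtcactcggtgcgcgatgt
Pck1: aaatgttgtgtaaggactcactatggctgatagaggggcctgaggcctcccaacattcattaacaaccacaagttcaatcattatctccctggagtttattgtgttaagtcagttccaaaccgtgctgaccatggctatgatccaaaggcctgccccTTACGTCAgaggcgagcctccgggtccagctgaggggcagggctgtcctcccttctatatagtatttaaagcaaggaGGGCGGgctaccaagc
The Pck1 run holds TTACGTCA, which starts 93 bases before the transcript and is found in 0.447% of 32851 promoter windows of the same length. This motif was searched for as the form of the Pck1 type, so its match in Pck1 was set in advance and is no finding. The Irs1 and Irs2 runs each hold CACGTG, 115 and 44 bases before the transcript, which 6.02% of the windows hold. TGACGTCA, found in 1.55% of windows, and TGTTTAC, found in 3.17%, have no match in these 3 runs. GC boxes occur in all 3 and in 32.7% of windows, CCAAT occurs in Irs2 and in 33.8%, and TATAAA occurs in 12.4%. A match is a run of letters and not a site of binding, which was not measured here. Of the 9 genes, 7 were matched to the promoter table, and Slc2a4 and Insr were not.

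The receptor comes first in the pathway. Insr (ENSMUSG00000005534, chr8:3122061-3279617, minus strand, GRCm38) encodes the insulin receptor. Insr was at 101, 105, 132 and 92.1 CPM in WT, 93.9, 86.2, 134 and 98.1 in SOD1G93A, 143, 117, 93.7 and 121 in Lepob/+, and 104, 115, 13.2 and 126 in SOD1G93A-Lepob/+, for replicates 1 to 4 in that order. In 15 libraries the level stayed between 86.2 and 143 CPM and the genotypes overlapped, while the library labelled SOD1G93A-Lepob/+ replicate 3, with 580 counts, lay far below the rest. The mean of SOD1G93A-Lepob/+ was 89.5 ± 51.7 CPM (SD, n = 4) with this library and 115 ± 11.1 (SD, n = 3) without it. Means of the other genotypes were 108 ± 17.0 CPM in WT, 103 ± 21.3 in SOD1G93A and 119 ± 20 in Lepob/+ (SD, n = 4 each). Among 10849 genes with a mean of at least 10 CPM in the other libraries, Insr had the lowest ratio in this library to the lowest of the others after Xist, at 0.153. Areg followed with a ratio of 0.159, Capn3 with 0.202, Pygo2 with 0.206, Tnpo1 with 0.273, Cd2ap with 0.308, Atf7 with 0.322 and Mdm4 with 0.348, none of them on chromosome 8. Further down came Clcn3, which is on chromosome 8, with 0.443. In the same library the other 8 genes lay within the range of the other 15.

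**Figure D1:**
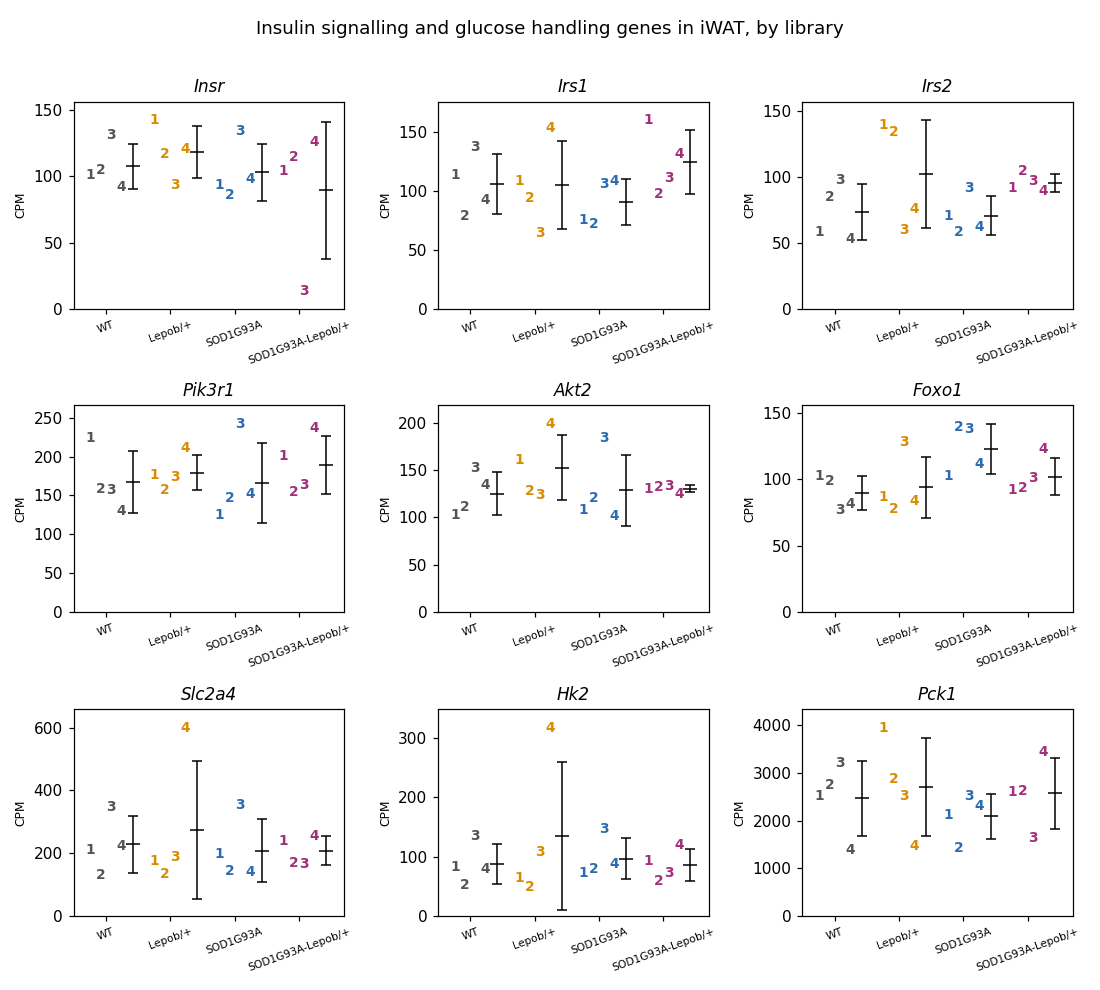
Levels of the 9 genes in CPM (vertical axis) by genotype (horizontal axis), with each library drawn as its replicate number and the mean ± SD of 4 libraries in black. Insr was at 13.2 CPM in SOD1G93A-Lepob/+ replicate 3, and Slc2a4 at 600.6 CPM and Hk2 at 318 CPM in Lepob/+ replicate 4, while other libraries of the genotypes overlapped.

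Irs1 and Irs2 encode the docking proteins that pass the signal on from the receptor. Irs1 (ENSMUSG00000055980, chr1:82233101-82291416, minus strand) was at 113, 78.8, 138 and 92.4 CPM in WT, 75.5, 72.1, 106 and 109 in SOD1G93A, 109, 93.6, 64.2 and 154 in Lepob/+, and 159.9, 97, 111 and 131 in SOD1G93A-Lepob/+. Its highest and lowest libraries were SOD1G93A-Lepob/+ replicate 1 and Lepob/+ replicate 3, and the 4 genotypes overlapped. Means were 106 ± 25.7 CPM in WT, 90.5 ± 19.3 in SOD1G93A, 105 ± 37.2 in Lepob/+ and 125 ± 27.3 in SOD1G93A-Lepob/+ (SD, n = 4 each). Irs2 (ENSMUSG00000038894, chr8:10984681-11008458, minus strand) was at 58.1, 84.9, 97.1 and 53.0 CPM in WT, 70.0, 57.9, 91.0 and 62.1 in SOD1G93A, 139, 134, 59.3 and 75.3 in Lepob/+, and 91.1, 104, 96.3 and 88.9 in SOD1G93A-Lepob/+. Replicates 1 and 2 of Lepob/+ were the highest of the 16, while its replicates 3 and 4 lay within the range of WT. In SOD1G93A-Lepob/+ the 4 libraries lay close together, at 95.1 ± 6.74 CPM (SD, n = 4), between the 2 pairs of Lepob/+, and 3 of these 4 lay above the highest library of SOD1G93A, 1 of them by less than 1 CPM. The gene 9530052E02Rik shares 162 exonic bases with Irs2 and had 4 to 90 counts, and Gm9747, on the strand opposite to Irs1, shares 2822 with it and had 0 to 7 counts. Reads in the shared bases may be uncounted, so the levels of Irs1 and Irs2 are uncertain to that extent.

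Pik3r1 encodes p85α, the main regulatory subunit of PI3K, which binds the docking proteins. Pik3r1 (ENSMUSG00000041417, chr13:101680563-101768217, minus strand) was at 224, 158, 158 and 130.1 CPM in WT, 125, 147, 242 and 151 in SOD1G93A, 176, 157, 174 and 211 in Lepob/+, and 201, 155, 164 and 236 in SOD1G93A-Lepob/+. The highest and the lowest library of the 16, replicates 3 and 1, were both SOD1G93A, and the genotypes overlapped. Akt2 (ENSMUSG00000004056, chr7:27591552-27640826, plus strand), the AKT isoform that carries the signal to GLUT4, was at 103, 111, 152 and 134 CPM in WT, 108, 121, 184 and 101 in SOD1G93A, 160.2, 128, 124 and 199 in Lepob/+, and 130.1, 132, 133 and 125 in SOD1G93A-Lepob/+. The 4 libraries of SOD1G93A-Lepob/+ were nearly equal, 130.2 ± 3.54 CPM, while SOD1G93A spread to 129 ± 37.8, Lepob/+ to 153 ± 34.7 and WT to 125 ± 22.6 (SD, n = 4 each). In the 6 libraries with lymph node markers Akt2 was at 101 to 124 CPM, and in the other 10 at 125 to 199 CPM, with no overlap, which 15.5% of all genes tested share for the same 2 sets of libraries. The processed pseudogene Akt2-ps (chr11:16514533-16515981) was counted at 12.2 to 26.4 CPM, which was 11.1% to 13.3% of Akt2 in each library. Only uniquely mapped reads were counted, so reads that fit both copies may be uncounted, and others may be assigned to the wrong copy. The level of Akt2 is uncertain to an extent that was not measured.

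Foxo1 is the transcription factor that insulin keeps out of the nucleus and that acts in the fasted state. Foxo1 (ENSMUSG00000044167, chr3:52268336-52353221, plus strand) was at 103, 98.4, 77.0 and 81.0 CPM in WT, 102, 139.6, 138 and 112 in SOD1G93A, 86.6, 77.2, 128 and 83.6 in Lepob/+, and 91.6, 93.3, 101 and 123 in SOD1G93A-Lepob/+. SOD1G93A was the highest genotype, at 123 ± 18.7 CPM, followed by SOD1G93A-Lepob/+ at 102 ± 14.2, Lepob/+ at 93.9 ± 23.1 and WT at 89.7 ± 12.6 (SD, n = 4 each). The lowest library of SOD1G93A lay just under the highest of WT, so these genotypes overlapped by 1 library. Gm20402, on the opposite strand, shares 674 exonic bases with Foxo1 and had 0 to 4 counts. The 6 libraries with lymph node markers had 98.4 to 139.6 CPM of Foxo1 (median 107), and the other 10 had 77.0 to 138 CPM (median 89.1). SOD1G93A holds 3 of the 6, and its replicate 3, with few lymph node transcripts, was at 138 CPM.

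Slc2a4 encodes GLUT4, the transporter that insulin brings to the surface of fat and muscle cells. Slc2a4 (ENSMUSG00000018566, chr11:69942539-69948188, minus strand) was at 209, 131, 348 and 224 CPM in WT, 197, 142, 354 and 139 in SOD1G93A, 174, 132, 188 and 601 in Lepob/+, and 238, 169.7, 165 and 256 in SOD1G93A-Lepob/+. The highest library was Lepob/+ replicate 4, followed by SOD1G93A replicate 3 and WT replicate 3, and the 13 others lay between 131 and 256 CPM. Hk2 encodes hexokinase 2, which traps glucose in the cell as glucose 6-phosphate. Hk2 (ENSMUSG00000000628, chr6:82725025-82774454, minus strand) was at 82.2, 52.7, 134 and 79.7 CPM in WT, 72.1, 78.9, 147 and 87.6 in SOD1G93A, 63.6, 48.5, 108 and 318 in Lepob/+, and 91.7, 58.4, 72.3 and 119.9 in SOD1G93A-Lepob/+. The same 3 libraries held the 3 highest levels of both genes. Skeletal muscle markers summed to 209400 CPM in Lepob/+ replicate 4 and 5370 in WT replicate 3, but to 11.8 in SOD1G93A replicate 3. In Lepob/+, Slc2a4 had a mean of 274 ± 219 CPM (SD, n = 4), or 165 ± 29.0 (SD, n = 3) without replicate 4, and Hk2 one of 135 ± 125 or 73.5 ± 31.1 CPM (same n).

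**Figure D2:**
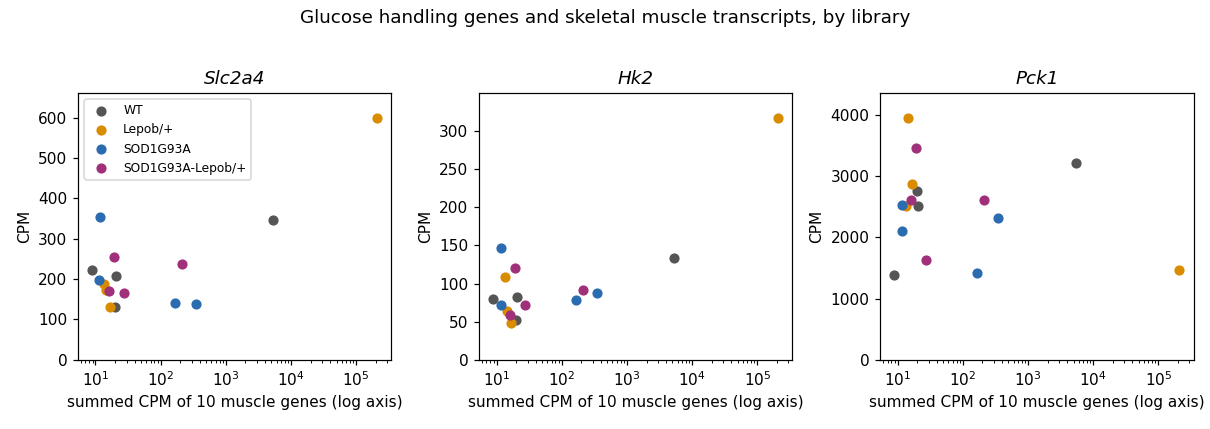
Slc2a4, Hk2 and Pck1 in CPM (vertical axes, from 0) against the summed CPM of 10 skeletal muscle genes (horizontal log axis) in each of 16 libraries, coloured by genotype. Lepob/+ replicate 4 lies at 209400 CPM of muscle genes and has the highest Slc2a4 and Hk2, while its Pck1, at 1472 CPM, is among the lowest.

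Pck1 encodes the cytosolic phosphoenolpyruvate carboxykinase, which in fat makes glycerol 3-phosphate from pyruvate so that fatty acids can be kept as triglyceride. Pck1 (ENSMUSG00000027513, chr2:173153048-173159273, plus strand) was at 2512, 2759, 3208 and 1380 CPM in WT, 2110, 1422, 2521 and 2316 in SOD1G93A, 3956, 2876, 2519 and 1472 in Lepob/+, and 2602, 2615, 1635 and 3451 in SOD1G93A-Lepob/+. Each genotype held a library at or under 1635 CPM and a library at or over 2521 CPM, and all overlapped. In SOD1G93A-Lepob/+ the library at 1635 CPM was replicate 3, whose RNA went against the label of female. Without it that genotype ran from 2602 to 3451 CPM (n = 3), above the 2521 CPM highest in SOD1G93A. The log2 fold change against SOD1G93A was 0.30 (SE 0.33, adjusted p = 0.655 in edgeR) with it and 0.47 (SE 0.34, adjusted p = 0.552) without it. Means were 2465 ± 778 CPM in WT, 2092 ± 477 in SOD1G93A, 2706 ± 1024 in Lepob/+ and 2576 ± 743 in SOD1G93A-Lepob/+ (SD, n = 4 each). Scaled to exon length, in CPM per kilobase, Pck1 was the most abundant of the 9 at 717 ± 215, followed by Slc2a4 at 65.9 ± 34.6, Akt2 at 18.8 ± 3.86, Pik3r1 at 17.4 ± 3.61, Hk2 at 16.9 ± 10.8, Irs2 at 13.5 ± 4.10, Foxo1 at 11.8 ± 2.37, Irs1 at 11.6 ± 3.08 and Insr at 7.62 ± 2.16 (SD over 16 libraries). Pck1 lay above Slc2a4, and Slc2a4 above Akt2, with no overlap of their ranges, while the neighbours from Akt2 to Insr overlapped. Irs1 was still above Insr in 16 of 16 libraries, whereas Foxo1 was above Irs1 in 7.

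**Figure D3:**
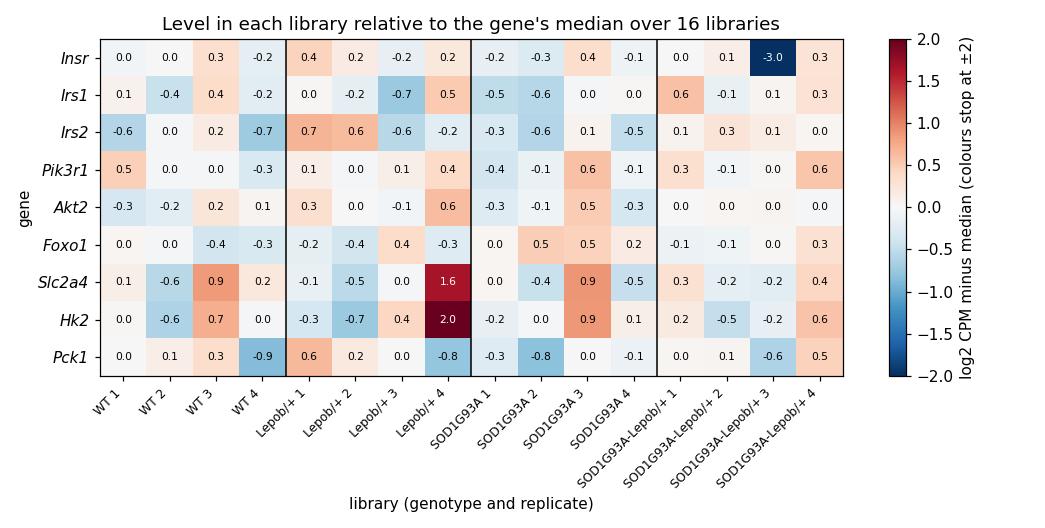
Level of each gene (rows) in each library (columns) as log2 CPM minus the median of that gene over 16 libraries, with colours that stop at 2 on either side. The lowest value is Insr in SOD1G93A-Lepob/+ replicate 3, at -3.0, and the highest is Hk2 in Lepob/+ replicate 4, at 2.0.

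The comparison of Lepob/+ with WT asks what 1 ob allele does without the transgene. The 2 genotypes overlapped for each of the 9 genes, while 0.907% of the 19736 genes tested had libraries that did not overlap. None of the 9 had an unadjusted p under 0.05, against 4.37% of all genes, and none passed the adjusted p, against 0% of all genes. The fitted values were above 0 for 8 of the 9, with a median log2 fold change of 0.14 against 0.03 over all genes, and without the 2 libraries rich in muscle for 6 of the 9, with a median of 0.04 against 0.00. Hk2 had the highest, 0.63 (SE 0.50, adjusted p = 1 in edgeR), and it was -0.26 without Lepob/+ replicate 4. Irs1 had the lowest, -0.01 (SE 0.26, adjusted p = 1 in edgeR). For Irs2, named after its values were seen, the value was 0.48 (SE 0.27), and without the 2 libraries rich in muscle it was 0.75 (SE 0.29, adjusted p = 1 in edgeR) with an unadjusted p under 0.05, against 1.40% of all genes.

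SOD1G93A was compared with WT to see the fat of the disease model at this age. Foxo1 was the 1 gene of 9 with an unadjusted p under 0.05, against 2.56% of all genes, and none passed the adjusted p, against 0% of all genes. Its log2 fold change was 0.45 (SE 0.17, 95% interval 0.08 to 0.82, adjusted p = 0.998 in edgeR), a level 1.37-fold that of WT, and all but 1 library of SOD1G93A lay above all of WT. With the lymph node markers as a covariate the value was 0.40, again with an unadjusted p under 0.05, and with the libraries scaled to the adipocyte markers it was 0.65 with an unadjusted p over 0.05. The unadjusted p rose over 0.05 without WT replicate 3, WT replicate 4, SOD1G93A replicate 2 or SOD1G93A replicate 3, with log2 fold changes of 0.37 to 0.39. Pck1 had the lowest value, -0.24 (SE 0.33, adjusted p = 0.998 in edgeR). The median of the 9 was -0.06 against 0.02 over all genes, or 0.09 against 0.03 without the 2 libraries rich in muscle, and none of the 9 had libraries that did not overlap, against 2.05% of all genes.

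The comparison of SOD1G93A-Lepob/+ with SOD1G93A shows the ob allele in mice with the transgene. All genes tested showed many differences here, 16.5% at an unadjusted p under 0.05 and 7.18% with libraries that did not overlap, but none of the 9 genes was among either. None of the 9 passed the adjusted p, against 0% of all genes. Irs1 had the highest value, 0.46 (SE 0.26, interval -0.09 to 1.02, adjusted p = 0.372 in edgeR), and with the libraries scaled to the adipocyte markers, which moved the median of all genes to -0.61, Irs1 was at -0.13. Foxo1 had the lowest value, -0.27 (SE 0.17, adjusted p = 0.442 in edgeR), and -0.88 under that scaling. For Insr, a value added after the levels were seen, the log2 fold change was -0.20 (SE 0.45, adjusted p = 0.842 in edgeR) with all libraries and 0.16 (SE 0.18, adjusted p = 0.726) without the library labelled SOD1G93A-Lepob/+ replicate 3. The median of the 9 was 0.02 against 0 over all genes, and with the lymph node markers as a covariate it was -0.09 against -0.045. The tools differed in this comparison. The voom fit of limma weights each library by its quality, from 0.263 for SOD1G93A replicate 3 to 3.36 for SOD1G93A-Lepob/+ replicate 1 in these 2 genotypes, and it had 3 of the 9 past the adjusted p, against 31.7% of all genes. These were Irs1 at 0.585 (SE 0.19, adjusted p = 0.0319), Irs2 at 0.52 (SE 0.16, adjusted p = 0.0255) and Pik3r1 at 0.43 (SE 0.15, adjusted p = 0.0419), all higher in SOD1G93A-Lepob/+. DESeq2 had none of the 9 past it, against 2.85% of all genes with an adjusted p when fitted on all libraries and 7.95% when fitted on the compared genotypes. Lymph node markers were high in 3 of the 4 libraries of SOD1G93A and in none of SOD1G93A-Lepob/+. In edgeR the 3 genes were at 0.46 (Irs1), 0.44 (Irs2) and 0.18 (Pik3r1), and with these markers as a covariate at 0.15, 0.12 and 0.12, each with an adjusted p = 1. The markers go with genotype in this comparison, so the covariate also takes up part of a genotype difference. Tissue composition and genotype cannot be told apart here.

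**Figure D4:**
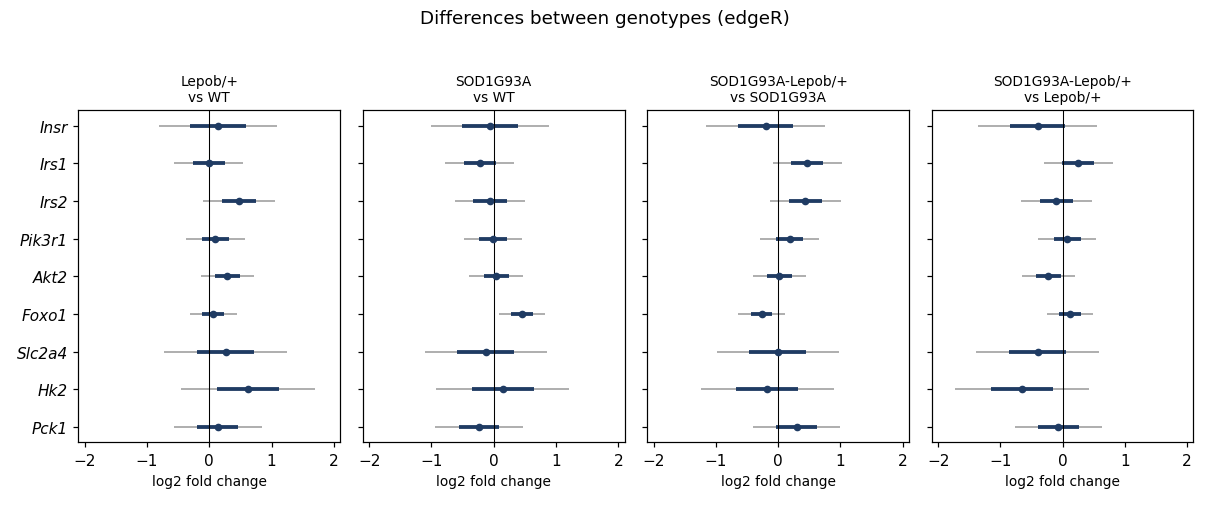
Log2 fold changes from edgeR (horizontal axis) of the 9 genes (vertical axis) in 4 comparisons of genotypes, with thick bars for the standard error and thin bars for the 95% interval. Foxo1 in SOD1G93A against WT, at 0.45, is the only value whose interval leaves out 0.

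For the transgene in Lepob/+ mice, SOD1G93A-Lepob/+ was compared with Lepob/+. None of the 9 had an unadjusted p under 0.05, against 8.24% of all genes, none passed the adjusted p, against 0%, and none had libraries that did not overlap, against 2.35%. Irs1 had the highest value, 0.25 (SE 0.26, adjusted p = 0.793 in edgeR). Hk2 had the lowest, -0.65 (SE 0.50, adjusted p = 0.733), and without Lepob/+ replicate 4 it was 0.22. Insr was at -0.40 (SE 0.45, adjusted p = 0.806 in edgeR), and at -0.04 (SE 0.18, adjusted p = 0.975) without the library labelled SOD1G93A-Lepob/+ replicate 3. The median of the 9 was -0.10 against -0.06 over all genes, or 0.07 against -0.01 without the 2 libraries rich in muscle.

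The interaction asks whether the ob allele had another effect with the transgene than without it. No gene of the 9 had an unadjusted p under 0.05, against 7.98% of all genes, or passed the adjusted p, against 0%. Values ran from -0.80 for Hk2 (SE 0.71, interval -2.31 to 0.71, adjusted p = 0.666 in edgeR) to 0.47 for Irs1 (SE 0.37, interval -0.31 to 1.25, adjusted p = 0.633). Those intervals are wide, and a change of 2-fold in the effect of the ob allele lies inside the interval of each of these genes. Without Lepob/+ replicate 4 the value was 0.09 for Hk2 and 0.74 for Irs1, whose unadjusted p was then under 0.05 (adjusted p = 0.582 in edgeR), as it was for 7.97% of all genes.

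Other genes of the pathway were read from 14 lists with 135 genes that do not include the 9, of which 132 were tested, and none passed the adjusted p in a comparison. In Lepob/+ against WT, 13 were higher and 1 was lower at an unadjusted p under 0.05, which is 10.6% of the 132 against 4.37% of all genes. The 4 with the smallest p were Pdk4, which keeps pyruvate out of the mitochondrial oxidation pathway (log2 fold change 2.60), Pfkm, the muscle phosphofructokinase (4.26), Ppp1r3c, which targets a phosphatase to glycogen (2.62), and Fbxo32, the FOXO target atrogin-1 (2.5), each with an adjusted p = 1 in edgeR. Pfkm was at 38.6, 37.0, 43.6 and 5055 CPM in Lepob/+ and 31.7, 28.4, 168 and 42.4 in WT, so that 1 library rich in muscle set the mean. Fbxo32 was at 27.1, 22.6, 27.8 and 605 CPM in Lepob/+ and 34.4, 31.2, 33.1 and 22.1 in WT. Pdk4 was at 1052 CPM in Lepob/+ replicate 4 and at 207 CPM in Lepob/+ replicate 3, which has few muscle transcripts but the highest sum of 6 markers of brown and beige adipocytes, 616.5 CPM against 45.2 to 231 in the other 15. SOD1G93A replicate 1, with the next sum of these markers, also had the next level of Pdk4, 132 CPM, and the part of these cells was not tested. Without Lepob/+ replicate 4 and WT replicate 3, 2 were higher and 0 lower, 1.52% of the 132 against 1.40% of all genes, and Pdk4 was at 1.22 (SE 0.48, adjusted p = 1 in edgeR), Pfkm at 0.21, Ppp1r3c at 0.14 and Fbxo32 at -0.19.

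In SOD1G93A against WT, 1 of the 132 was higher at an unadjusted p under 0.05 and 0 were lower, a share of 0.758% against 2.56% of all genes. This was Lnpep, the insulin-regulated aminopeptidase that travels in GLUT4 vesicles, with a log2 fold change of 0.28 (SE 0.10, adjusted p = 0.998 in edgeR). Lnpep was at 135, 163, 154 and 157 CPM in SOD1G93A and 125, 134, 130 and 112 in WT, so each library of SOD1G93A lay above each of WT, by less than 1 CPM at the nearest. Libraries did not overlap for 3 of the 132, Lnpep, Pdpk1 (the kinase PDK1 that activates AKT) and Ccng2 (a FOXO target), all higher in SOD1G93A, a share of 2.27% that is near the 2.05% of all genes.

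In SOD1G93A-Lepob/+ against SOD1G93A, 4 of the 132 were higher and 12 lower at an unadjusted p under 0.05, and 2 lay above and 5 below with no overlap. These shares, 12.1% and 5.30%, lay under the 16.5% and 7.18% of all genes. The 4 with the smallest p, all lower, were Pik3cd, the PI3K subunit p110δ of white blood cells (log2 fold change -2.29), Pdk1, a pyruvate dehydrogenase kinase (-1.03), Rictor, a subunit of mTORC2 (-0.62), and Pik3cg, the p110γ subunit of white blood cells (-1.09), each with an adjusted p = 0.261 in edgeR. Pik3cd was at 182, 256, 24.3 and 173 CPM in SOD1G93A and 27.3, 41.0, 31.7 and 29.8 in SOD1G93A-Lepob/+. Its low library in SOD1G93A, replicate 3, is the 1 there with few lymph node transcripts. Markers of T cells summed to 713 to 1254 CPM in the other 3 libraries of SOD1G93A, 13.4 in replicate 3 and 9.39 to 22.2 in SOD1G93A-Lepob/+. With the lymph node markers as a covariate, 2 were higher and 0 lower, 1.52% against 4.10% of all genes, and the 4 genes were at -0.56 (Pik3cd), -0.48 (Pdk1), -0.09 (Rictor) and -0.36 (Pik3cg), none with an unadjusted p under 0.05. These markers go with genotype in this comparison, so tissue composition and genotype cannot be told apart. Pdk1 was at 132, 139, 80.3 and 103 CPM in SOD1G93A and 61.3, 47.3, 36.0 and 77.1 in SOD1G93A-Lepob/+, with no overlap, and lowest of the 16 in the library labelled SOD1G93A-Lepob/+ replicate 3. Its log2 fold change was -0.86 (adjusted p = 0.3 in edgeR) without the 3 libraries that stand apart.

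In SOD1G93A-Lepob/+ against Lepob/+, 3 of the 132 were higher and 21 lower at an unadjusted p under 0.05, which is 18.2% against 8.24% of all genes. Without the 2 libraries rich in muscle 3 were higher and 5 lower, 6.06% against 6.97% of all genes. Among those with the smallest p were Pfkm (log2 fold change -5.03), Fbp2, the muscle fructose bisphosphatase (-5.08), and Fbxo32 (-2.88), each with an adjusted p = 0.597 in edgeR. These 3 were highest in Lepob/+ replicate 4, and without it and WT replicate 3 they were at 0, -0.51 and -0.15, none with an unadjusted p under 0.05. For the interaction, 1 of the 132 was positive and 14 were negative at an unadjusted p under 0.05. These are 11.4% of the 132 against 7.98% of all genes, and without the muscle-rich libraries 0 were positive and 3 negative, 2.27% against 5.10%. Those with the smallest p were Pdk4 (-2.66, SE 0.98), Pik3cg (-1.48, SE 0.58), Mlxip, a gene of glucose-sensing transcription (-1.15, SE 0.45), and Sesn1, a FOXO target (-0.51, SE 0.20). Each had an adjusted p = 0.564 in edgeR. Without the muscle-rich libraries Pdk4 was at -1.27 and Mlxip at -0.465, both with an unadjusted p over 0.05. Pik3cg was then at -1.29 and Sesn1 at -0.42, both under it. With the lymph node covariate Pik3cg was at -0.91, over 0.05, while Pdk4, Mlxip and Sesn1 stayed under it.

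The 9 genes did not vary as 1 group across libraries. The values that follow are Pearson correlations of log2 CPM, given as descriptions with no test, across libraries that differ in depth and tissue composition. Over 16 libraries the highest of 36 pairs was Slc2a4 with Hk2, at 0.91, and over the 13 libraries left without the 3 that stand apart it was 0.79. Irs2 and Insr had 0.07 over 16 and 0.82 over 13, Pck1 and Insr 0.46 and 0.80, and Pck1 and Irs2 0.62 and 0.75. With the summed markers of mature adipocytes the values over 13 were 0.86 for Insr, 0.78 for Irs2, 0.73 for Irs1 and 0.69 for Pck1. Over 16 they were 0.04, 0.73, 0.46 and 0.67 in that order. Over 13 the values were 0.57 for both Akt2 and Pik3r1, 0.46 for Slc2a4, 0.04 for Hk2 and -0.35 for Foxo1. Irs2 and Hk2 had -0.24 over 16 and -0.37 over 13. Foxo1 had values of -0.42 to 0.71 with the other genes over 13 libraries, the highest with Hk2.

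**Figure D5:**
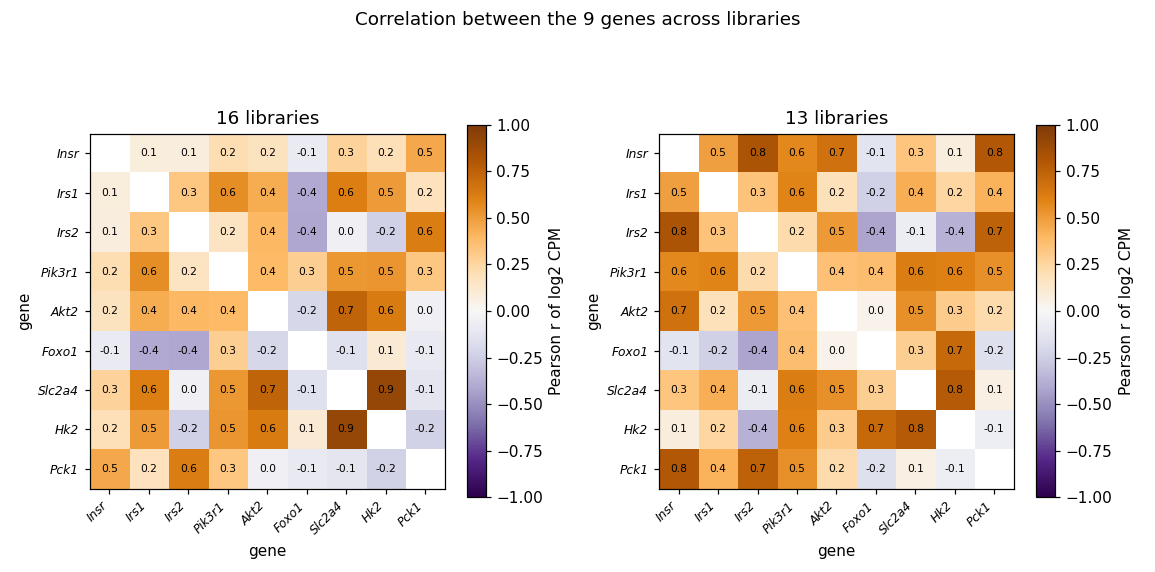
Pearson correlation of log2 CPM between each pair of the 9 genes (both axes), over 16 libraries (left) and over the 13 left without SOD1G93A-Lepob/+ replicate 3, Lepob/+ replicate 4 and WT replicate 3 (right). Slc2a4 with Hk2 is high in both, and Insr with Irs2 rises from 0.07 to 0.82.

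Among 10816 genes with a mean of at least 10 CPM, those most like each of the 9 over 16 libraries were named by the same correlation. Slc2a4 was most like Ppp1r1a (0.98), an inhibitor of protein phosphatase 1, then Cib2 (0.96) and Adi1 (0.94). Hk2 was most like Opa1 (0.97), which fuses inner mitochondrial membranes, Ndufs1 (0.96), a subunit of complex I, and Lpin1 (0.96), a phosphatidate phosphatase of triglyceride synthesis. Pck1 was most like Adipor2 (0.90), an adiponectin receptor, Acss3 (0.89) and Pnpla2 (0.88), the adipose triglyceride lipase. Irs2 was most like Efnb1 (0.92), Atoh8 (0.91) and Cat (0.91), and Irs1 most like Lrrc41 (0.89), Dusp3 (0.89) and Mmab (0.87). For Foxo1 these were Klf13 (0.89), Hipk1 (0.89) and Baz1b (0.88), and for Pik3r1 Ranbp9 (0.82), Dcun1d3 (0.81) and Ell2 (0.79). For Akt2 they were its pseudogene Akt2-ps (0.97), Optn (0.91) and Hbp1 (0.89). Insr was most like Xist (0.96), Atf7 (0.96) and Pygo2 (0.90), and without the library labelled SOD1G93A-Lepob/+ replicate 3 these values were 0.08, 0.40 and 0.13. Over the 13 libraries they were 0.29, 0.75 and 0.09. Over those 13, Insr was most like Bnip3 (0.94), Syne2 (0.93) and Vnn3 (0.93).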

How the data were processed

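The authors extracted RNA from iWAT, trimmed reads with fastp, aligned them to mm10 with HISAT2 2.1.0 and counted uniquely mapped reads with featureCounts 2.0.2 (versions from the submitters' processing notes). The deposited values are the authors' raw counts per Ensembl gene, with no normalization. The strand setting and annotation release are not given in the sources used here, and the labels name a NEBNext Ultra kit where the methods name TruSeq Stranded. Of 54752 IDs, 54723 were paired with symbols and GRCm38 coordinates of GENCODE M21.

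In R 4.3.3 with edgeR 4.0.16, filterByExpr (min.count 10, min.total.count 15) kept 19736 genes, all 9 genes included. Libraries were scaled by TMM, and all 16 entered 1 robust quasi-likelihood fit of genotype, tested for 4 comparisons and the interaction. P-values were adjusted by Benjamini-Hochberg over all genes within a comparison, at 0.05. A prior count of 1 entered log2 values. Libraries held 36.8 to 61.9 M counts, and the lowest count of the 9 genes was 580.

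The genes and pathway lists were chosen with earlier results of these data known. Fold changes are named for genes with an unadjusted p under 0.05 and for the highest and lowest value of a comparison, and up to 4 genes of the lists with the smallest p under 0.05. A gene of these lists is not reported here. Insr folds, the Irs2 fold in Lepob/+ and the Pck1 folds against SOD1G93A were added after values were seen.

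Alternatives were DESeq2 size factors, no filter, at least 1 CPM in 4 libraries, a block for the replicate number, edgeR and DESeq2 1.42.0 on the compared genotypes, DESeq2 on all, voom of limma 3.58.1, a lymph node covariate, and leaving out libraries. Scaling to the adipocyte markers and leaving out the 3 libraries that stand apart were chosen after seeing the data. The fit was also run on simulated counts with known changes. These held no libraries rich in muscle or lymph node transcripts, so that run does not show how the fit handles such libraries.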

Additional observations from a re-analysis of the deposited data

Results flagged for a closer look

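In groups of 4 libraries, a library was singled out where its gap to the next, divided by the range of the group, was above Dixon's 95% critical value for 4 values. Of 36 groups (9 genes in 4 genotypes), 1 met this, and chance alone gives about 1 in 20. It was Slc2a4 in Lepob/+, where replicate 4 was at 600.6 CPM and the next library at 188 CPM, a ratio of gap to range of 0.881. The same library had 209400 CPM of skeletal muscle markers. Insr in SOD1G93A-Lepob/+ had a ratio of 0.804, just below that value, for replicate 3. These ratios were taken on CPM, and which library is singled out depends on that scale. In log2 CPM Insr was at 3.72 in replicate 3 and at 6.70 to 6.98 in the other libraries of SOD1G93A-Lepob/+. Slc2a4 was at 9.23 in Lepob/+ replicate 4 and at 7.05 to 7.56 in the other libraries of Lepob/+.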

How the results depend on the processing

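No fit but voom put any of the 9 genes past the adjusted p, and voom did so for 3, in SOD1G93A-Lepob/+ against SOD1G93A. There voom had 6254 of 19736 genes, or 31.7% of all, past it. Numbers of genes with an unadjusted p under 0.05 moved by few. For Lepob/+ against WT the number was 1 (Irs2) by voom, without the muscle-rich libraries, without the 3 libraries that stand apart and under adipocyte scaling, and 0 to 1 when each library was left out. Over all genes it was 1242 of 19736 by voom and 281 of 20004 without the muscle-rich libraries. Without the 3 libraries it was 286 of 19943 genes, and under adipocyte scaling 864 of 19736. For SOD1G93A against WT it was 0 under the same 4 settings and 0 to 1 when each library was left out. Over all genes these 4 settings had 1785 of 19736, 466 of 20004, 477 of 19943 and 190 of 19736, in the same order. For SOD1G93A-Lepob/+ against SOD1G93A it was 1 by edgeR (Irs2) and 2 by DESeq2 (Irs1 and Irs2) on the compared genotypes only. All genes had 3942 of 18506 and 5051 of 29385 there. By voom it was 4 (Irs1, Irs2, Pik3r1 and Akt2), against 8752 of 19736 genes. It was 1 (Irs1) without the muscle-rich libraries, against 19.5% of all genes, and without the 3 libraries, against 15.9%. With the lymph node covariate it was 1 (Akt2, -0.33), against 4.10%. Under adipocyte scaling it was 1 (Foxo1, -0.88), against 6592 of 19736 genes. It was 0 to 1 when each library was left out. For SOD1G93A-Lepob/+ against Lepob/+ it was 1 with the covariate (Akt2, -0.37), against 9.03% of all genes. Under adipocyte scaling it was 4 (Irs2, Akt2, Slc2a4 and Hk2, all lower), against 4469 of 19736 genes. For the interaction it was 1 with the covariate (Akt2, -0.53), against 6.12% of all genes. Under adipocyte scaling the interaction had 3 (Akt2, Foxo1 and Hk2, all negative), against 5375 of 19736 genes. It had 0 to 1 when each library was left out. Of 332 alternative values of 12 fold changes, 297 kept direction and side of the threshold, 19 reversed, 8 went past it and 8 fell short of it. Reversed by voom were Hk2 in Lepob/+ against WT (-0.14), in SOD1G93A-Lepob/+ against Lepob/+ (0.39) and in the interaction (0.21), and Irs1 in Lepob/+ against WT (0.04). Adipocyte scaling reversed Irs1 in Lepob/+ against WT (0.20), in both comparisons of SOD1G93A-Lepob/+ (-0.13 against SOD1G93A and -0.30 against Lepob/+) and in the interaction (-0.33). This scaling moved the median of all genes to 0.17, 0.26, -0.61 and -0.60 in the 4 comparisons and -0.88 in the interaction, and the median of the 9 to 0.28, 0.14, -0.47, -0.51 and -1.02. Hk2 in SOD1G93A-Lepob/+ against Lepob/+ was 0.22 without the muscle-rich libraries and 0.30 without the 3 libraries, and Insr against SOD1G93A was 0.16 without the 3. With each library left out, Hk2 ran from -0.26 to 0.91 in Lepob/+ against WT, -0.93 to 0.22 in SOD1G93A-Lepob/+ against Lepob/+ and -1.08 to 0.093 in the interaction, Irs1 from -0.27 to 0.16 in Lepob/+ against WT, and Insr from -0.42 to 0.16 in SOD1G93A-Lepob/+ against SOD1G93A. The causes were not tested. Same-numbered libraries form 24 pairs, of which 5 correlated over 0.1 and 8 below -0.1, so the numbers were not taken to pair mice. With the replicate block, Foxo1 in SOD1G93A against WT was 0.44 and no number of the 9 genes past a threshold changed. The counting error of the lowest library was 0.476% to 4.15% of its count for the 9 genes, against a spread of 20.1% to 63.8% (CV) over the 16 libraries.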

Other observations

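In the library labelled SOD1G93A-Lepob/+ replicate 3, 106 of 119 pathway genes with a mean of at least 10 CPM lay within the range of the other 15 libraries. The 7 below that range were Fbxo32, Gyg, Pdk1, Rictor, Slc2a3, Socs3 and Tbc1d1, and the 6 above it were Akt1, Pfkp, Phlpp2, Pik3r3, Ppp1r3d and Slc2a13. These are 5.88% and 5.04% of the 119, against 4.77% and 7.97% of all 10849 genes at that level. Pik3r3, a further regulatory subunit of PI3K, was at 21.5 CPM there and 7.65 to 17.0 in the others, and Slc2a13, a proton and myo-inositol cotransporter, at 31.6 CPM against 5.64 to 23.2. Akt1, an AKT kinase of growth, was at 200.3 CPM against 151 to 196. Lepob/+ replicate 4, the library richest in muscle, had 42 of the 119 above and 15 below the other libraries, the first a share of 35.3% against 25.9% of all genes, and the remaining 14 libraries had 0 to 14 above and 0 to 15 below. Counted over all genes with a mean of at least 10 CPM, each library had 1 to 7 genes under 0.25 of the lowest level elsewhere, and the library with low Insr had 5.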
